A study of Mus musculus with 9 samples.

Results

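The triceps, an extensor of the forelimb, was compared with the rectus femoris and the gastrocnemius, extensors of the hindlimb, in adult mouse muscle. The mice of all 9 arrays of the study were male C57BL/6J, an inbred strain, and were 12 weeks old, with no treatment named in the labels. Each array held RNA of 1 muscle: masseter, digastric, trapezius, supraspinatus, triceps, rectus femoris, tibialis anterior, soleus or gastrocnemius. The study concerns positional memory, the record that adult muscle keeps of its place in the body, and its title names the homeobox gene Hoxa10. The labels do not say whether a sample held RNA of 1 animal or of several.

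The comparison used 3 of the 9 arrays and was made on the deposited log2 values for 22180 genes. The 3 arrays were chosen because they are limb extensors and because the spread of their values was alike: triceps had an SD over all probe sets of 1.96, rectus femoris of 1.95 and gastrocnemius of 1.92, against 2.03 to 2.08 in the other 6 arrays. With 1 array per muscle there are no replicates, so no test, error or p-value can be given. A difference between 2 arrays cannot be told apart from a difference between animals or between RNA preparations. For each gene the gap was taken as the log2 distance of triceps from the nearer of the 2 hindlimb arrays, and was set to 0 where triceps lay between them. A gap of 1 log2 unit or more, which is 2-fold, was counted as a call, as a description of size only.

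Skeletal muscles of different regions contract with much the same proteins, yet they derive from different parts of the embryo and keep traces of that origin. Hox genes, which lie in 4 clusters named Hoxa to Hoxd and encode transcription factors, are switched on in the order in which they lie along the chromosome. Those at the 5′ end of a cluster mark the hind part of the body and the distal limb. Muscle tissue also holds other cells, chiefly endothelial cells, fibro-adipogenic progenitors and resident macrophages, and their RNA is measured with that of the fibres. In whole muscle a lower value can mean fewer cells of a type or less RNA per cell, and these cannot be told apart.

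All 3 arrays carried the defining genes of skeletal muscle. Acta1, the skeletal alpha actin, stood at 12.91 in triceps against 12.90 in rectus femoris and 12.90 in gastrocnemius. Ckm, muscle creatine kinase, stood at 12.79, 12.81 and 12.85 in the same order. Across the 16 defining muscle genes the median difference of triceps from the mean of the 2 hindlimb arrays was 0.06, and -0.14 with each array scaled to the same SD. Of tissues that dissection can bring along, Ucp1 of brown fat stood at 2.28 in triceps, Krt14 of keratinocytes at 3.08 and S100a8 of neutrophils at 1.15. Tendon and white adipocyte genes were not low: 13 of 15 and 15 of 18 reached 5 in 1 of the 3 arrays. Their means were 5.94 and 6.07 in triceps, 6.01 and 6.17 in rectus femoris and 5.90 and 5.89 in gastrocnemius. Adipoq, the adipocyte hormone adiponectin, stood at 3.98 in triceps, between 4.34 in rectus femoris and 3.58 in gastrocnemius.

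Triceps lay outside both hindlimb arrays for 15127 genes and between them for 7053. It was above both for 8134 genes, 36.7% of all, and below both for 6993, 31.5%. The balance differed among the 7444 genes that reached 5 on the log2 scale in at least 1 of the 3 arrays. Among these, triceps was above both for 51.2% and below both for 21.7%. These shares moved with the scale of the arrays: they were 34.8% and 34.5% after quantile normalization of the 3 arrays to a single distribution, 44.9% and 25.3% with each array scaled to the same SD, and 56.7% and 18.2% with each array centred on its median. The median difference of triceps from the hindlimb mean was 0.02 over all genes and 0.11 over the genes at 5 or more.

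A gap of 2-fold or more was rare. Triceps was higher than both hindlimb arrays by that much for 56 genes, 0.252% of all, and lower for 44 genes, 0.198%. With each array scaled to the same SD the numbers were 70 higher and 36 lower. The 2 hindlimb arrays differed from each other by 2-fold for 389 genes, close to the 397 at which triceps differed from rectus femoris and below the 482 at which it differed from gastrocnemius. The SD of the differences over genes was 0.38, 0.38 and 0.40 for these pairs. Triceps was therefore hardly further from the rectus femoris than the gastrocnemius was. Most calls were made at low values, where signal is hard to tell from background: 43 of the 56 higher genes had a triceps value under 5, and 33 of the 44 lower genes had at least 1 hindlimb value under 5.

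**Figure D1:**
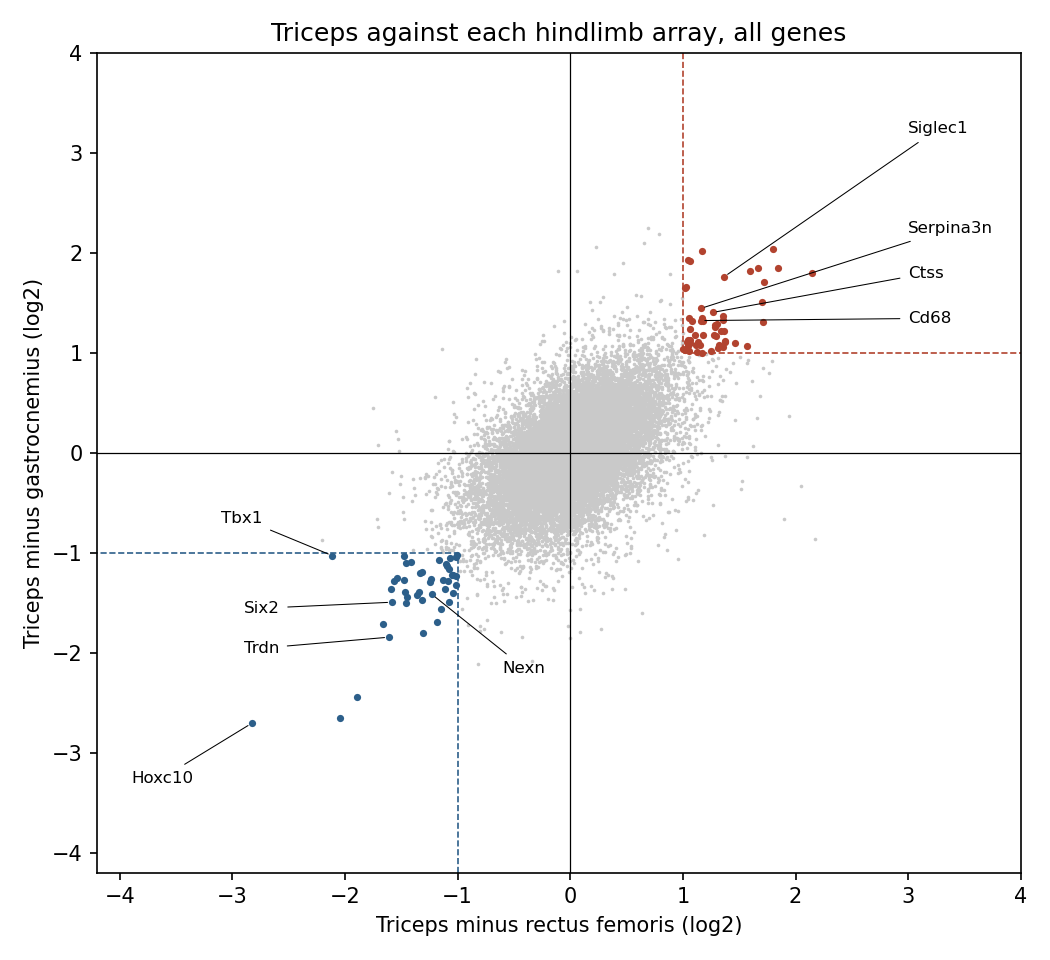
Each point is 1 of 22180 genes, placed by its log2 difference of triceps from rectus femoris (x axis) and from gastrocnemius (y axis). Dashed lines mark the 2-fold gap: 56 genes in red lay above both hindlimb arrays by that much and 44 in blue lay below both, with Hoxc10 the furthest out.

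Among the named genes at 5 or more the 2 directions differed in kind. A further 2 higher and 5 lower genes at that level have clone or similar symbols and were left out. Among the lower ones left out, a clone had a gap of -1.89, beyond that of every named gene but Hoxc10. Of the 11 named genes that were higher in triceps at a value of 5 or more, Siglec1, Cd68, Adgre1, Fcgr1, Ctss and Ly86 are genes of macrophages or their lysosomes. The 6 lower ones were Hoxc10, Six2 and Tbx1, which encode transcription factors, Trdn and Nexn, which encode structural proteins of the muscle fibre, and Htra4, a member of the HtrA serine protease family. Over all 22180 genes, gaps of 3-fold or more were found for 6 above and 5 below. All 6 above had triceps values under 5, from 3.58 to 4.86. The largest upward gap at 5 or more was 2.58-fold, for Siglec1. Those below included Hoxc10 and Trdn, and some of the others were dim.

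**Figure D2:**
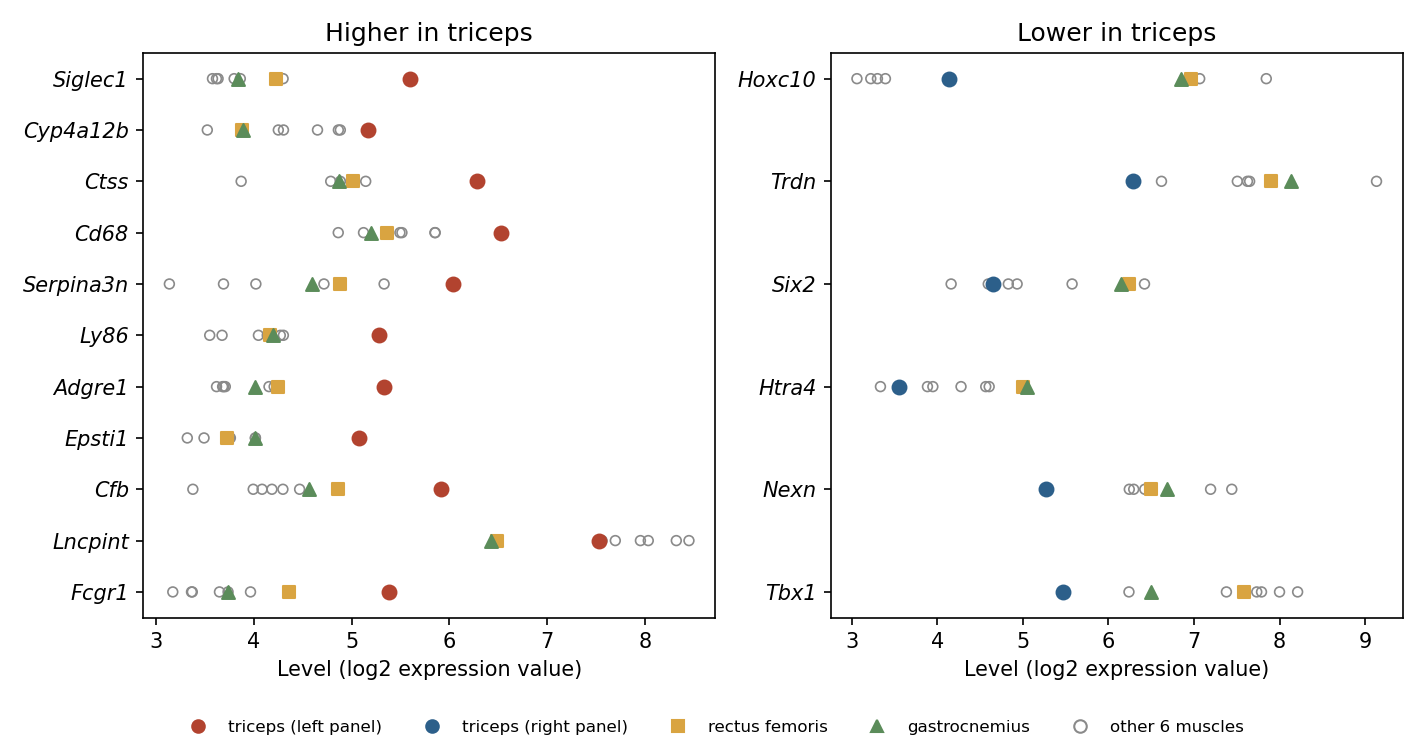
Log2 value of each named gene with a gap of 2-fold or more in each of the 9 muscles, with triceps, rectus femoris and gastrocnemius in colour and the other 6 arrays in grey. The genes were chosen for their gap from 2 of these arrays. In 10 of the 11 higher genes the triceps point is the highest of all 9, and in 3 of the 6 lower genes it is the lowest.

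Hoxc10, a 5′ gene of the Hoxc cluster known as a hindlimb marker, had the largest gap at a measured level. It stood at 4.14 in triceps against 6.97 in rectus femoris and 6.85 in gastrocnemius, a gap of -2.71. The hindlimb arrays that were not part of the comparison lay with the other hindlimb arrays, at 7.84 in tibialis anterior and 7.07 in soleus. The remaining arrays were lower than triceps, from 3.06 in masseter to 3.39 in trapezius, with supraspinatus at 3.22. The 4 hindlimb arrays thus all lay far above the other 5. Triceps, at 4.14, was the highest of the 5 and below the value of 5 used here for a measured gene.

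Hoxc8, Hoxc9 and Hoxc11, its neighbours in the cluster, were ordered in the same way at lower values. Hoxc8 stood at 3.19 in triceps against 4.03 in rectus femoris and 4.10 in gastrocnemius, a gap of -0.84. Hoxc9 stood at 3.58 against 4.96 and 4.0, and Hoxc11 at 3.48 against 3.97 and 4.08. For all 3 genes every hindlimb array, tibialis anterior and soleus included, was above every head, shoulder and forelimb array. The gap for Hoxc9 was set by the gastrocnemius, whose 4.0 was the lowest of the 4 hindlimb values, since rectus femoris, tibialis anterior and soleus stood at 4.96, 4.89 and 4.59. The 2 genes at the 5′ end did not follow: Hoxc12 stood at 3.80 in triceps, above tibialis anterior at 3.54 and soleus at 3.61, and Hoxc13 was level, at 3.10 against 3.10 and 3.07.

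Among the 36 measured Hox genes triceps was above both hindlimb arrays for 8, between them for 11 and below both for 17, with 2 past 2-fold, both lower. The second was Hoxd10, at 3.71 in triceps against 4.76 in rectus femoris and 4.93 in gastrocnemius. With tibialis anterior at 4.21 and soleus at 4.26 counted too, its gap shrank from -1.05 to -0.50, and trapezius, at 4.32, was above both of these. By cluster, 7 of 9 Hoxc genes and 5 of 8 Hoxd genes were below both, against 3 of 9 Hoxa and 2 of 10 Hoxb genes. The share below both over all genes was 31.5%, as given above. Medians of the difference from the hindlimb mean were -0.27 for Hoxc and -0.24 for Hoxd, and 0.07 and 0.05 for Hoxa and Hoxb.

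By position along the clusters, 9 of the 15 genes of groups 9 to 13 were below both hindlimb arrays, as were 4 of the 11 genes of groups 5 to 8 and 4 of the 10 genes of groups 1 to 4. Only 1 of those 9, Hoxc10, reached a value of 5. Counted against all 4 hindlimb arrays the number below was 5 of 15, where the share below all 4 over all genes was 14.7%. Hoxa10, the gene of the title, stood at 4.08 in triceps against 4.17 in rectus femoris and 4.43 in gastrocnemius, a gap of only -0.08. Tibialis anterior at 4.02 and soleus at 3.95 were below triceps, so Hoxa10 did not set triceps apart from the hindlimb on these arrays. It was lower in the head, at 3.26 in both masseter and digastric.

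A few Hox genes lay the other way. Hoxa7 stood at 5.0 in triceps against 4.49 and 4.54, and the supraspinatus, the nearest shoulder muscle, was second at 4.77. Hoxb3 was higher in triceps at 4.25 than in either hindlimb array, both at 3.79. Hoxd8, one of the few Hox genes above 5 in these arrays, was between them, at 5.58 against 4.98 in rectus femoris and 5.94 in gastrocnemius. Triceps was the highest of all 9 arrays for Hoxa7 and Hoxb3, and also for Hoxb6, Hoxb8 and the 5′ genes Hoxa13 and Hoxb13. Hoxb6 and Hoxb8 exceeded the next array by only 0.04 and 0.05. Hoxa13 stood at 4.41 in triceps against 3.75 and 4.12, with tibialis anterior at 4.40, and Hoxb13 at 3.68 against 3.32 and 3.26.

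**Figure D3:**
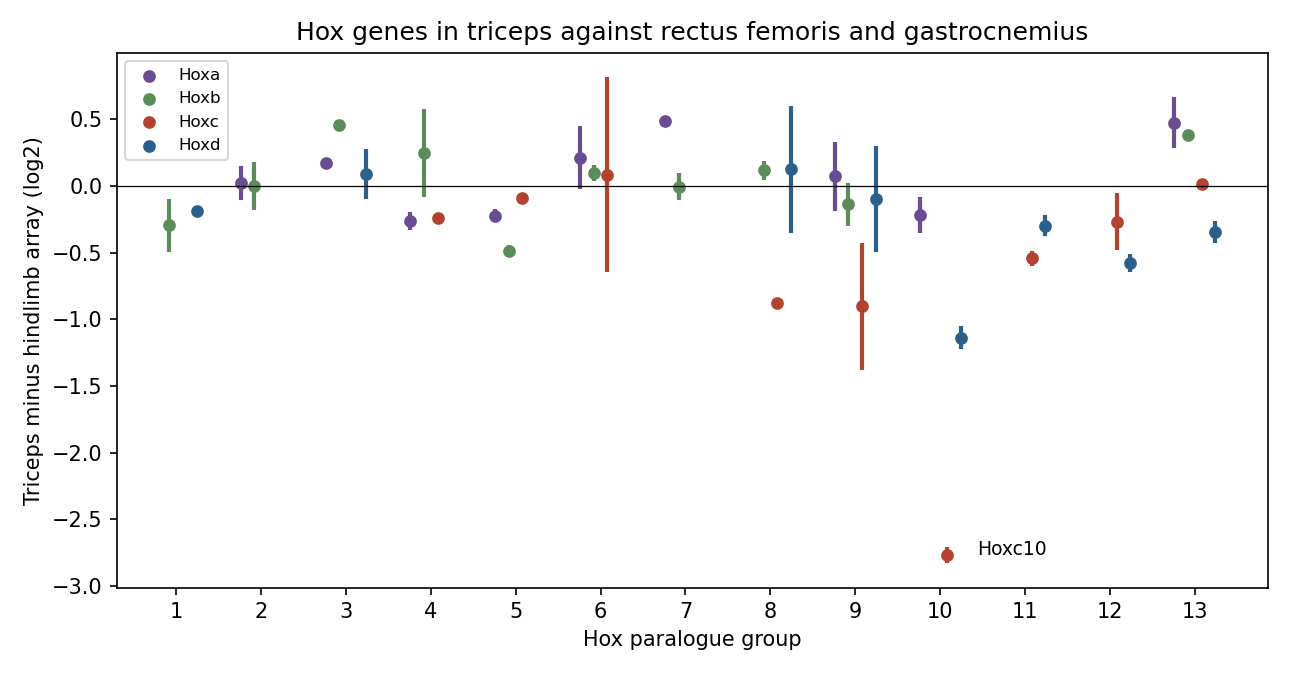
Log2 difference of triceps from the mean of rectus femoris and gastrocnemius for the 36 measured Hox genes (y axis), by paralogue group (x axis) and cluster (colour). The dot is the difference and the line runs between the differences from each hindlimb array, and Hoxc10 lies far below all others.

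Transcription factors that pattern the limb bud were also compared, a wide list in which only a few, such as Tbx5, Pitx1, Tbx4 and Isl1, set forelimb against hindlimb. Of 30 such factors 10 were above both hindlimb arrays, 12 between and 8 below, none past 2-fold, with a median difference of 0.02. Tbx5, which initiates the forelimb, stood at 3.89 in triceps against 3.97 in rectus femoris and 2.84 in gastrocnemius. Pitx1, which gives the hindlimb its identity, stood at 4.08, 4.35 and 4.39, and supraspinatus had the highest value of the 9 arrays, 4.70. Tbx4, its partner in the hindlimb, stood at 3.99, 4.05 and 4.36. Most of these factors were under 5, so a difference could have gone undetected at this signal.

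Shox2, a homeobox gene of the proximal limb, was the factor furthest above all 8 other arrays, at 4.55 in triceps against 4.20 in rectus femoris and 3.93 in gastrocnemius. Prrx1, a homeobox gene of limb mesenchyme and its adult fibroblasts, was measured well, at 6.49 against 6.13 and 6.00. Trapezius was level with triceps for Prrx1, at 6.49, and the rest of the other 6 arrays were higher, up to 7.67 in soleus. Lbx1, which marks the muscle precursors that migrate into the limb, was between the hindlimb arrays, at 6.31 against 6.20 and 6.68.

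The other transcription factors with a gap at a measured level were Six2 and Tbx1. Six2, a homeobox gene of the family named after Drosophila sine oculis, stood at 4.66 in triceps against 6.24 in rectus femoris and 6.15 in gastrocnemius, a gap of -1.50. Its values did not follow limb: tibialis anterior was at 4.83, soleus at 4.16, and masseter at 6.42 was the highest. Tbx1, a T-box gene best known from the pharyngeal arches, stood at 5.47 in triceps against 7.58 and 6.50. It was lowest of all 9 arrays in triceps, with soleus next at 6.24, and digastric highest at 8.21. The rectus femoris and gastrocnemius themselves differed by more than 2-fold for Tbx1, about as far as triceps was from the gastrocnemius.

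Trdn and Nexn were the named muscle structural genes below both hindlimb arrays by 2-fold or more at a measured level. Trdn encodes triadin, which anchors calsequestrin to the calcium release channel of the sarcoplasmic reticulum. It stood at 6.29 in triceps against 7.90 in rectus femoris and 8.13 in gastrocnemius, 3.06-fold lower. Soleus, at 6.30, and supraspinatus, at 6.62, were about as low, and digastric was highest at 9.13. Its partners in the release complex did not differ that way: Ryr1, the calcium release channel, stood at 11.32, 11.33 and 11.25, and Casq1, calsequestrin, at 12.23, 12.31 and 12.09.

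Nexn encodes nexilin, an actin-binding protein of the Z-disc and the membrane junctions of muscle. It stood at 5.27 in triceps against 6.50 and 6.69, a gap of -1.23. Both genes were lowest in triceps among all 9 arrays, with a gap from the other 8 of -0.97 for Nexn and only -0.01 for Trdn. For Nexn the other 6 ran from 6.24 in supraspinatus to 7.44 in digastric. Htra4 stood at 3.55 in triceps against 5.01 in rectus femoris and 5.05 in gastrocnemius, but at 3.95 in soleus and 3.33 in masseter. Only Hoxc10 and Nexn of the 6 kept a gap of 2-fold when tibialis anterior and soleus were counted too: Nexn then stood 1.02 below, Tbx1 0.77, Htra4 0.40 and Trdn 0.01, and Six2 was inside the hindlimb range.

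Genes of tissue macrophages were higher in triceps as a group. Of 30 measured genes 25 were above both hindlimb arrays, 2 between and 3 below. The median difference was 0.58, against 0.02 over all genes. The share above both over all genes was 36.7%. Triceps was the highest of all 9 arrays for 24 of the 30 and the lowest for 2. Over all genes it was so for 14.0% and 8.55%. The list was chosen with earlier results of these data known, so these counts describe its members and are not independent evidence.

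The macrophage genes past 2-fold were Cd68, Adgre1, Fcgr1 and Ms4a7. Cd68, a glycoprotein of the macrophage lysosome, stood at 6.53 in triceps against 5.37 in rectus femoris and 5.20 in gastrocnemius. Trapezius and soleus, both at 5.85, were the nearest of the other arrays, so against all hindlimb arrays the gap was 0.67. Adgre1, the F4/80 antigen, stood at 5.33 against 4.25 and 4.01, and no other array passed 4.25. Fcgr1, the high-affinity IgG receptor, stood at 5.38 against 4.36 and 3.74. Ms4a7, a membrane protein of macrophages and microglia, stood at 4.78 against 3.74 and 2.86.

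Siglec1, the sialic acid receptor of resident macrophages that interferon also raises, was not in that list and had the largest gap upward among genes at 5 or more. It stood at 5.60 in triceps against 4.23 in rectus femoris and 3.84 in gastrocnemius, a gap of 1.37. The other 6 arrays ran from 3.58 in soleus to 4.30 in trapezius, so that 8 arrays lay within a narrow band and triceps alone above it. Ly86, the MD-1 partner of a Toll-like receptor homologue on myeloid cells, stood at 5.28 against 4.17 and 4.20, with 3.55 to 4.30 in the other 6.

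Other members were higher in triceps by less than 2-fold. C1qb, a chain of complement C1q that macrophages secrete, stood at 7.69 in triceps against 6.80 in rectus femoris and 5.90 in gastrocnemius. C1qa stood at 6.51 against 5.89 and 5.52. Itgam, the CD11b integrin, stood at 5.86 against 5.05 and 4.33, and the highest of the other 6 was 4.65 in trapezius. Csf1r, the receptor for the growth factor that keeps macrophages alive, stood at 6.85 against 6.35 and 6.23. Cd163, a haemoglobin scavenger receptor, stood at 6.03 against 5.53 and 5.11, and Lyz2, lysozyme, at 8.27 against 7.94 and 7.44. Mrc1, the mannose receptor, was nearly level, at 6.49 against 6.38 and 5.91.

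The exceptions were Cx3cr1, Lyz1 and Marco, below both, and Trem2 and Tyrobp, between. Cx3cr1, the fractalkine receptor, stood at 4.54 in triceps against 5.63 in rectus femoris and 4.96 in gastrocnemius, and triceps was the lowest of all 9 arrays. Averaged over the list, the level was 5.33 in triceps, 4.95 in rectus femoris, 4.62 in gastrocnemius and 4.29 to 4.79 in the other 6. The rectus femoris was therefore itself above every array but triceps.

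Lysosomal and scavenging genes followed, 16 of 20 above both hindlimb arrays and none below, with a median difference of 0.33. Of the 20, 17 reached 5, the level at which 51.2% of all genes were above both. After quantile normalization 15 were above and 2 below, and with equal SDs 14 and 2. Ctss, cathepsin S, a protease of antigen-presenting cells, led with 6.28 in triceps against 5.02 in rectus femoris and 4.88 in gastrocnemius, 2.40-fold. The other 6 arrays ran from 3.87 in masseter to 5.14 in trapezius. Slc40a1, the iron exporter ferroportin, stood at 5.76 against 4.97 and 4.91, and Lipa, lysosomal acid lipase, at 6.56 against 5.84 and 5.72. For both genes triceps was inside the range of the other 8 arrays. Hmox1, haem oxygenase, stood at 5.77 against 5.27 and 4.78 and was highest in triceps. General lysosomal genes differed little: Ctsd, the protease cathepsin D, stood at 9.99 against 9.85 and 9.60, and Lamp1, a membrane glycoprotein, at 9.24 against 9.24 and 9.06. Against all 4 hindlimb arrays 8 of the 20 were above, as were 19.6% of all genes.

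Genes induced by interferon were the other group. Of 15 measured genes 13 were above both hindlimb arrays, 2 between and none below, and 11 were the highest of all 9 arrays. Over all genes 36.7% were above both and 14.0% were highest of the 9. This list too was chosen with earlier results of these data known, so its counts are a description only. Against all 4 hindlimb arrays the number was again 13, where 19.6% of all genes were above all 4. The median difference was 0.68, the largest of the lists, although no member reached 2-fold. The list averaged 4.44 in triceps, 3.83 in rectus femoris, 3.84 in gastrocnemius and 3.77 to 4.12 in the other 6.

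Bst2, tetherin, which holds budding virus at the cell surface, stood at 6.17 in triceps against 5.24 in rectus femoris and 4.95 in gastrocnemius. Irf7, the factor that amplifies interferon production, stood at 5.97 against 4.97 and 5.16. Oasl2, an oligoadenylate synthetase-like protein, stood at 5.49 against 4.60 and 4.23. For these genes the other 6 arrays ran from 5.05 to 5.34, from 4.62 to 4.97 and from 4.05 to 4.46, so that triceps stood clear of all of them. Usp18, which removes ISG15 from proteins, stood at 5.09 against 4.37 and 4.26. Ifit3 stood at 5.44 against 4.72 and 4.76. Isg15 itself, a ubiquitin-like modifier, was low, at 3.26 against 2.56 and 2.21.

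Other members were level. Ifit1 stood at 4.02 in triceps, between 3.87 in rectus femoris and 4.20 in gastrocnemius, and Ddx58, the RNA sensor RIG-I, at 3.97, between 4.02 and 3.75. Rsad2, viperin, differed little, at 4.15 against 3.76 and 3.95. Ms4a4c and Oas1g were among the 5 genes that exceeded all 8 other arrays by most, with predicted genes, pseudogenes, small RNAs and olfactory receptors left out. Oas1g, an oligoadenylate synthetase, stood at 3.58 against 1.44 and 1.78, and Ms4a4c, of the Ms4a membrane family, at 4.19 against 2.39 and 2.14, both under 5. Epsti1, an interferon-responsive gene of macrophages, stood at 5.08 against 3.72 and 4.02, with no other array above 4.02.

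The interferon genes are known to share a promoter element bound by the factors ISGF3 and IRF, and macrophage genes are known to be bound by PU.1, the product of Spi1. The promoters of 5 genes are shown because they carry those letters, as RefSeq gives them on build GRCm38.p6, 5′ to 3′ on the strand of the gene, from 250 bases before the start to 50 after. Capitals mark matches on either strand to GAAANNGAAA, the core of the interferon response element, or to GAGGAA, the core of the PU.1 site. A match can overlap the next. The windows are Isg15 (chr4:156200769-156201068, minus strand), Ifit3 (chr19:34583279-34583578, plus), Bst2 (chr8:71537423-71537722, minus), Ctss (chr3:95526536-95526835, plus) and Cd68 (chr11:69666121-69666420, minus). The first 3 are marked for the interferon core, Cd68 for the PU.1 core and Ctss for both.
Isg15: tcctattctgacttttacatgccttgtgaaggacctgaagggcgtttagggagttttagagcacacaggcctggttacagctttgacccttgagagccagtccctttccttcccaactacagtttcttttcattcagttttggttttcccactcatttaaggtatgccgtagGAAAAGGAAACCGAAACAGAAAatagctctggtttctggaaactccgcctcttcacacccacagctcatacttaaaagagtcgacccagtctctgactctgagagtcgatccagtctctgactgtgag
Ifit3: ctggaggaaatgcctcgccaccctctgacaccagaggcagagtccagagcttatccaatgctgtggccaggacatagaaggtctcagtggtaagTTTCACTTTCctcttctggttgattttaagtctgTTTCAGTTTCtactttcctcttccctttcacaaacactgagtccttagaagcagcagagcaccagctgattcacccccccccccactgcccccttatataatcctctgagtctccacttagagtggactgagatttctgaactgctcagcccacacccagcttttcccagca
Bst2: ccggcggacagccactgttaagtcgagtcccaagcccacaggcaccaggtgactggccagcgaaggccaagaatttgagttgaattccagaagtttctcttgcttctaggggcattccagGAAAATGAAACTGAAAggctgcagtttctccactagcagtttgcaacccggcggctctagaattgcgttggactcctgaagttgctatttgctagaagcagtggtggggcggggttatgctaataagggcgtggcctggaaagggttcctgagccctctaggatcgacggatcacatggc
Ctss: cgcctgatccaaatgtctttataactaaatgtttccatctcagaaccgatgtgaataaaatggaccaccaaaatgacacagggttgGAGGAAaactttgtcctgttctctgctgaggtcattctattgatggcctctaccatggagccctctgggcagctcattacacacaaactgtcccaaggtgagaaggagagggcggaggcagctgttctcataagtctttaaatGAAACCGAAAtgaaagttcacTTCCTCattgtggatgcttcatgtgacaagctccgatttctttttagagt
Cd68: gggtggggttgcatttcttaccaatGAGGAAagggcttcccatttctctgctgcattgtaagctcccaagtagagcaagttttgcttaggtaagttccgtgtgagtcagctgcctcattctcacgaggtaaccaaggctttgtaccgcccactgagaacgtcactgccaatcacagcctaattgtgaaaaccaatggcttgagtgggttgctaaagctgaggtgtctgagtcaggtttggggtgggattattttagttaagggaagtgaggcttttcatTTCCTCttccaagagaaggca

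In the Isg15 window 3 overlapping matches form 1 run, at bases 173 to 194 of 300, and in Bst2 2 overlap, at bases 121 to 136. Ifit3 has 2 separate matches, both on the opposite strand. Ctss, a lysosomal gene, has 1 match to the interferon core at bases 230 to 239 and a PU.1 core on each strand. The interferon core was found in 7 of the 13 windows of the interferon list, belonging to 7 of its 11 genes with a window, against 3.44% of all 32851 windows and 1 of 25 windows of the macrophage list. The PU.1 core was found in 14 of 25 windows of the macrophage list, 56.0%, against 28.3% of all windows, and in 4 of the 13 interferon windows. These matches describe the letters only.

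Chemokines and complement factors were mixed. Of 23 chemokine and complement genes 15 were above both hindlimb arrays, 3 between and 5 below, with Cfb and Cxcl13 past 2-fold. Cfb, complement factor B, stood at 5.91 in triceps against 4.86 in rectus femoris and 4.56 in gastrocnemius, and no other array passed 4.86. Cxcl13, which draws B cells, stood at 5.0 against 3.95 and 3.86, with trapezius at 4.78. Ccl9 and Ccl6, chemokines of macrophages in mice, were the best measured, at 7.59 against 6.65 and 6.42 and at 6.82 against 6.14 and 4.57. Cxcl10, an interferon-induced chemokine, was between, at 3.66 against 3.82 and 3.49. Serpina3n, an acute-phase serine protease inhibitor, stood at 6.04 against 4.88 and 4.60, with trapezius next at 5.33.

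Markers of other blood cells did not share this pattern. Of 19 lymphocyte genes 5 were above both hindlimb arrays and 11 below, with a median of -0.09, and of 18 neutrophil and mast cell genes 4 were above and 8 below, with a median of -0.29. Nearly all were dim: 1 and 2 of them reached 5. Of 16 antigen presentation genes 4 were above both and 8 below. Class II genes were level, with H2-Eb1 at 5.78 in triceps against 5.94 and 6.04 and H2-Ab1 at 6.43 against 6.44 and 6.22. The class I genes in the list were higher, H2-K1 at 6.84 against 6.21 and 5.83 and B2m at 9.67 against 9.01 and 8.58. Macrophage, interferon and lysosome values were high together in a single triceps array, and whether this belongs to the muscle, the animal or the preparation was not tested.

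**Figure D4:**
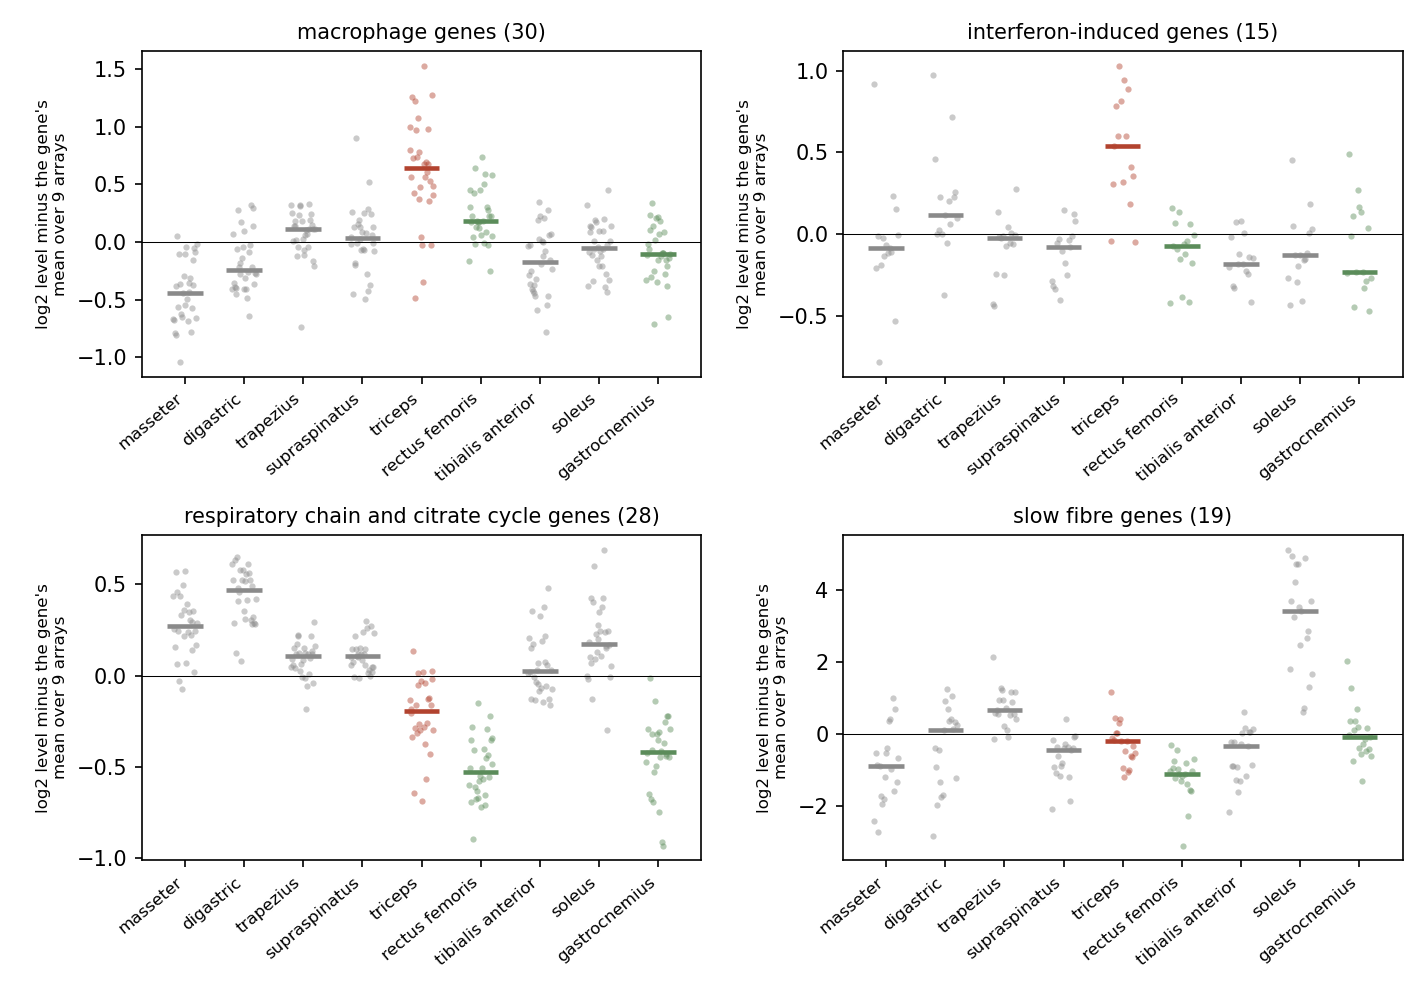
Members of 4 gene lists in each of the 9 muscles, as log2 value relative to the gene's own mean over the 9 arrays. Points are genes and bars are medians: macrophage and interferon-induced genes are highest in triceps, respiratory genes are lower in triceps, rectus femoris and gastrocnemius than in the other 6 arrays, and slow fibre genes peak in soleus.

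Genes of resident stromal cells differed by less. Most of the members reached 5, the level at which 51.2% of all genes were above both and 21.7% below. Of 16 genes of fibro-adipogenic progenitors 11 were above both hindlimb arrays, with a median of 0.15. Dpp4, a surface protease found on a subset of these cells, stood at 5.12 in triceps against 4.12 in rectus femoris and 4.22 in gastrocnemius, a gap of 0.90. Of 20 matrix genes 11 were above and 2 below, with Timp1 past 2-fold. Timp1, an inhibitor of metalloproteinases, stood at 4.79 against 3.62 and 2.78, but soleus reached 4.88. Collagens were mixed: Col1a1 stood at 10.25, between 10.38 and 10.01, and Col6a1 at 8.45, above 8.41 and 8.08. Of 19 endothelial genes 10 were above and 1 below, with Kdr, the VEGF receptor, at 6.91 against 6.47 and 6.52. After quantile normalization 8 were above and 4 below, and none was above all 4 hindlimb arrays. The endothelial list averaged 6.04 in triceps and 6.20 to 6.87 in the other 6 arrays. Of 15 tendon genes 3 were above and 6 below.

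Genes of oxidative metabolism were above both hindlimb arrays in small steps. Of 28 respiratory chain and citrate cycle genes 27 were above both and none below, with a median difference of 0.28 and no gap past 0.48. The value for Sdhd, a subunit of succinate dehydrogenase, was 8.70 in triceps against 8.12 in rectus femoris and 8.22 in gastrocnemius. Cs, citrate synthase, stood at 10.43 against 10.11 in both. Sdha, the catalytic subunit of the same dehydrogenase, was nearly level, at 9.77 against 9.65 and 9.74. This count depends on the scale of the arrays: after quantile normalization, and equally with each array scaled to the same SD, 16 of the 28 were above both, with medians of 0.15 and 0.16. All 28 were genes at 5 or more. Of all genes at that level 51.2% were above both on the deposited scale, 34.8% after quantile normalization and 44.9% with equal SDs.

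The other 6 arrays did not share the level of these 3. The respiratory list averaged 9.46 in triceps against 9.16 in rectus femoris and 9.24 in gastrocnemius, and 9.74 to 10.11 elsewhere. Triceps was the highest of all 9 arrays for 1 of the 28, Ndufv1, and against all 4 hindlimb arrays it was above for 1. Over all genes it was above all 4 for 19.6%. The SD over probe sets was lower in these 3 arrays than in the other 6, as given above, and its part in this was not tested.

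Genes of fatty acid use were above both hindlimb arrays for 16 of 20, with a median of 0.40. Of the 20, 19 reached 5, the level at which 51.2% of all genes were above both, with a median of 0.11. Slc27a1, a fatty acid transporter, stood at 7.11 in triceps against 5.86 in rectus femoris and 6.54 in gastrocnemius. Hadha, of the mitochondrial trifunctional protein, stood at 9.52 against 9.05 and 9.11, and Acadl, a chain-length-specific acyl-CoA dehydrogenase, at 8.81 against 8.05 and 8.45. Ppargc1a, the coactivator PGC-1alpha that drives mitochondrial genes, stood at 7.0 against 6.18 and 6.72. Rectus femoris was the lower of the 2 hindlimb arrays for most of them. With quantile normalization 14 of the 20 were above both, and against all 4 hindlimb arrays 2 were, where 19.6% of all genes were.

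Of 15 antioxidant genes 12 were above both and none below, with a median of 0.27. All 15 reached 5, the level at which 51.2% of all genes were above both, with a median of 0.11. After quantile normalization 11 were above and 1 below. Gpx3, the secreted glutathione peroxidase, stood at 6.55 in triceps against 5.70 and 5.31. The muscles of the head and shoulder were higher still, from 6.89 to 7.44, and tibialis anterior and soleus were at 5.96 and 5.75, so Gpx3 was lower in all 4 hindlimb arrays than in the other 5. Cat, catalase, stood at 8.74 against 8.12 and 8.20, with soleus at 10.37.

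**Figure D5:**
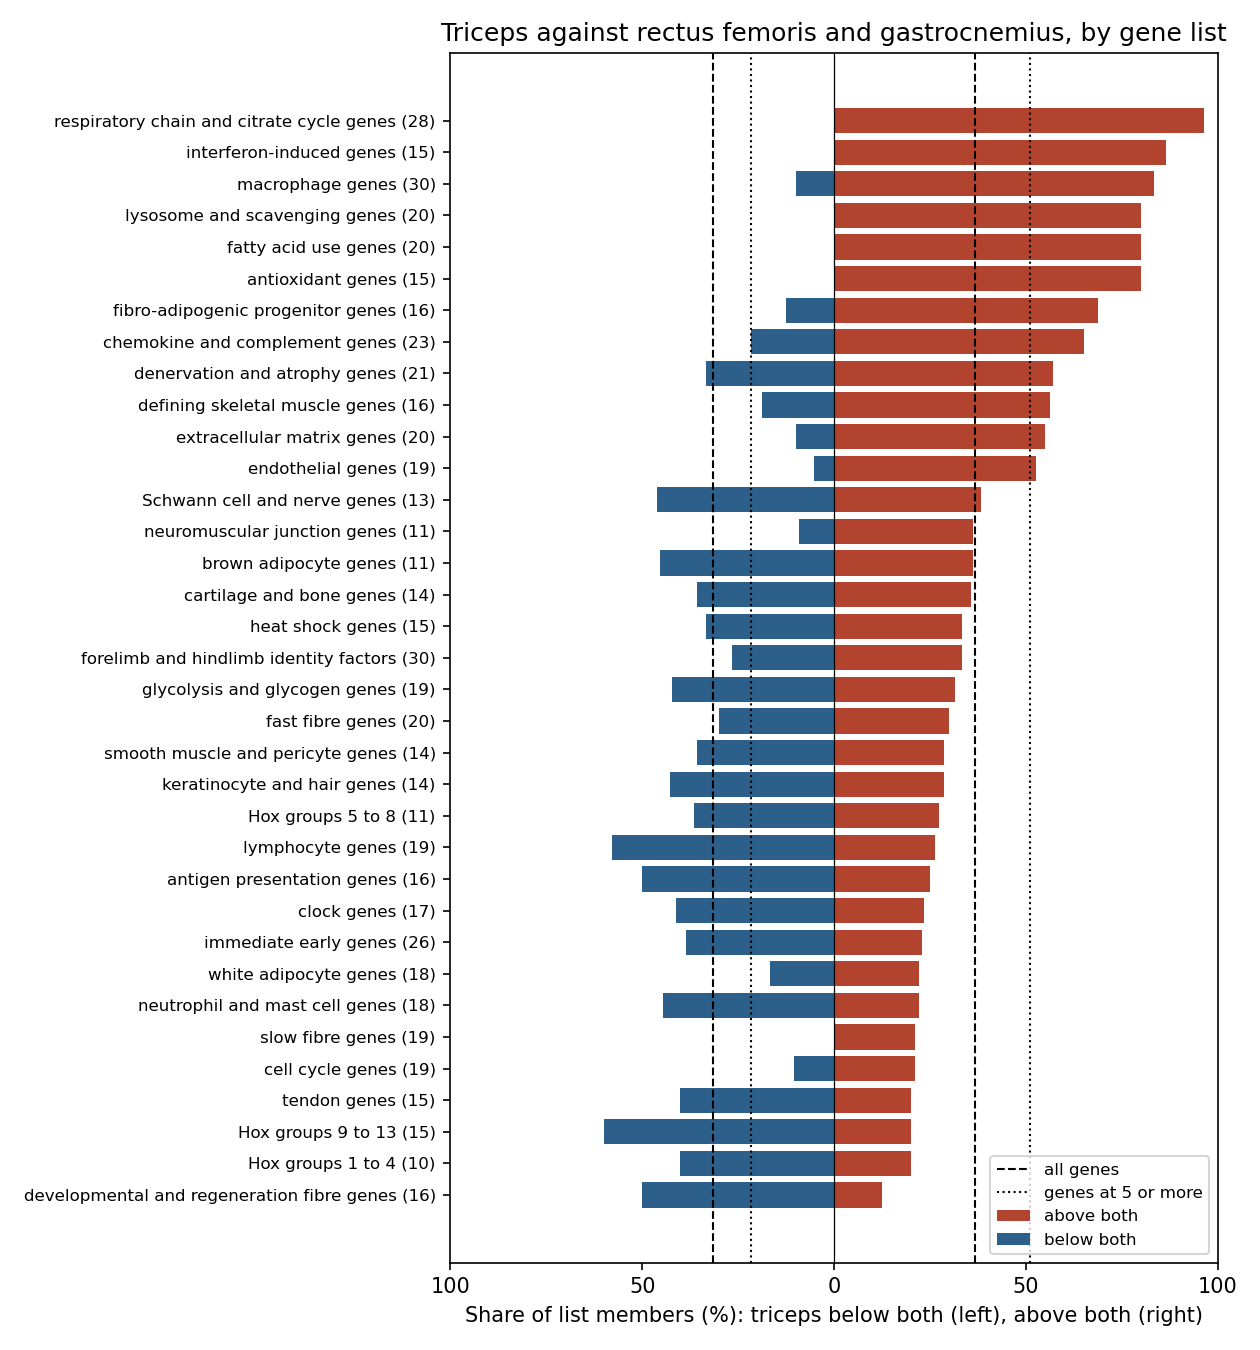
Share of the measured members of each gene list (number in brackets, lists with 10 or more) for which triceps was above both hindlimb arrays (red, right) or below both (blue, left), in percent. Dashed lines mark the shares over all genes (36.7% and 31.5%) and dotted lines those over genes at 5 or more (51.2% and 21.7%); respiratory, interferon-induced and macrophage genes reach furthest to the right, and the respiratory count falls to 16 of 28 after quantile normalization.

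For most slow fibre genes triceps lay between the 2 hindlimb muscles, which was not so for the fast fibre genes. Of 19 slow fibre genes 15 were between them, 4 above and none below, and rectus femoris was below gastrocnemius by a median of 1.23. Myh7, the slow myosin heavy chain, stood at 7.66 in triceps against 5.49 in rectus femoris and 8.53 in gastrocnemius, against 11.62 in soleus. Tnnc1, slow troponin C, stood at 6.62, 5.10 and 6.90. The 4 above included Mybpc1, slow myosin-binding protein C, at 10.41 against 9.78 and 9.57, and Myl6b, a slow-type myosin light chain, at 5.22 against 3.98 and 4.46, while the other 6 arrays were higher than triceps for Mybpc1.

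Fast fibre genes had no single direction on the deposited scale, and their place depended on the scale. Of 20 genes 6 were above both hindlimb arrays, 8 between and 6 below, with a median of 0.03. With each array scaled to the same SD, 1 was above and 17 were below, with a median of -0.15, and after quantile normalization 5 were above and 7 below. Myh4, the myosin of the fastest fibres, stood at 12.86 in triceps against 12.95 in rectus femoris and 12.94 in gastrocnemius. Myh1, the IIx myosin, stood at 11.83 against 11.27 and 11.22, a gap of 0.55. Of the other 6 arrays only soleus, at 11.41, was below triceps for Myh1, and the rest ran from 12.02 to 12.79. Myh2, the IIa myosin, followed the slow genes, at 9.74 between 7.70 and 10.08. Ampd1, AMP deaminase, was the fast gene furthest below, at 10.16 against 10.81 and 10.63. Of 19 glycolysis and glycogen genes 6 were above both and 8 below, with a median of -0.01, and with equal SDs 4 were above and 13 below.

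Genes that respond to the state of the muscle gave no single direction. Of 21 genes of denervation and atrophy 12 were above both hindlimb arrays and 7 below, with Pdk4, which turns pyruvate away from oxidation, at 10.36 against 9.83 and 9.80. Fbxo32, the ubiquitin ligase atrogin-1, stood at 8.05 against 7.67 and 7.65. For both genes all other 6 arrays were above triceps, from 10.59 to 11.24 for Pdk4 and from 8.08 to 8.70 for Fbxo32. Chrna1, the acetylcholine receptor subunit that denervation raises, was lowest of all 9 arrays in triceps, at 5.19. Of 16 developmental and regeneration genes 2 were above and 8 below, with Tnnt2, cardiac troponin T, at 4.61 against 5.28 and 5.41. Of 11 junction genes of the motor nerve 4 were above and 1 below. Clock genes, which vary with the hour of sampling, were above for 4 of 17 and below for 7, with none past 2-fold, and after quantile normalization were above for 2 and below for 11. Immediate early genes were above for 6 of 26 and below for 10, and of 15 heat shock genes 5 were above, 5 between and 5 below.

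Of the genes named for their gap alone, Lncpint and Cyp4a12b belong to none of these groups. Lncpint, a long non-coding RNA, stood at 7.53 in triceps against 6.48 in rectus femoris and 6.43 in gastrocnemius. All 6 other arrays were above triceps, from 7.56 to 8.45, so the 2 hindlimb arrays were the low ones. Cyp4a12b, a fatty acid hydroxylase of the cytochrome P450 family, stood at 5.17 against 3.88 and 3.89, with masseter and digastric near it at 4.87 and 4.89. Cyp4a12b has a close paralogue, and the array may not separate the pair. With the same kinds of gene left out, those furthest below all 8 other arrays were Zfp971, Zfp329, Nexn, Suz12 and Zfp667. Suz12, a subunit of the Polycomb complex PRC2 that silences Hox genes, stood at 2.93 against 3.86 and 4.02, with 3.82 to 4.86 in the other 6, all under 5.

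A second forelimb-side and hindlimb-side pair, supraspinatus and tibialis anterior, was not used in the comparison. Supraspinatus was above tibialis anterior for 49.6% of all genes. It was above for 26 of the 56 genes higher in triceps, and below for 23 of the 44 lower ones. Among the genes named for their gap the counts were 6 of 11 and 5 of 6. By list, it was above for 20 of 30 macrophage genes, 9 of 15 interferon genes, 17 of 28 respiratory genes and all 20 fatty acid genes. Siglec1 stood at 3.80 in supraspinatus and 3.64 in tibialis anterior, and Hoxc10 at 3.22 and 7.84.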

How the data were processed

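The authors hybridised labelled cDNA from total RNA of frozen muscle to GeneChip Mouse Gene 2.0 ST arrays, 1 per muscle, per the labels' protocols. Their deposited table holds 1 log2 value for each probe set and array, a scale read from the range of values. Per the submitters' processing notes it was made with GCRMA, version not given, which subtracts a background predicted from probe sequence, adjusts the arrays to each other and can compress low values. The number of arrays, not read depth, limits precision.

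Of 41345 probe sets 23521 had 1 gene, 1814 several and 16010 none. Symbols of 23328 came from the GRCm38.p6 gene table and 193 from the array table. For 1082 genes with several probe sets the one with the highest mean was used, leaving 22180 genes. Array genes carry no coordinates here. Of 685 entries in 36 gene lists 624 were measured.

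Named genes were, per direction, up to 15 called genes with the largest gap and a brighter side (triceps, or the lower hindlimb array) at 5 or more, the 5 furthest outside all 8 other arrays, list members and Hox genes. Predicted genes, clones, pseudogenes, small RNAs, olfactory receptors and similar family symbols were not named. The members and lists were chosen with earlier results of these data known. No test was run. The gap calculation was tested on simulated data. Alternatives were other between-array scales, a filter on dim genes, averaged probe sets, each hindlimb array left out, all 4 hindlimb arrays, and other gap sizes. Python 3.11.15, numpy 2.4.6, pandas 2.3.3 and matplotlib 3.10.9 were used.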

Additional observations from a re-analysis of the deposited data

How the results depend on the processing

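No paired analysis was possible because each muscle had 1 array. The counts of 56 higher and 44 lower genes depend on the gap size, the dim genes and the hindlimb arrays counted. Only genes at 5 or more gave 13 higher and 11 lower, and a gap outside all 4 hindlimb arrays gave 34 and 6. A gap of 1.5-fold gave 489 and 417, and one of 3-fold gave 6 and 5. Leaving out each hindlimb array in turn gave 214 to 231 higher and 183 to 251 lower, since only 1 array then had to be passed. The other between-array scales gave 62 to 70 higher and 36 to 42 lower genes.

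Of list counts, respiratory genes above both went from 27 to 16 of 28 with quantile normalization and to 16 with equal SDs. The cause was not tested. Against all 4 hindlimb arrays the respiratory genes above numbered 1, fatty acid genes 2, lysosomal genes 8 and Hox genes of groups 9 to 13 below 5. The shares over all genes were then 19.6% above and 14.7% below. The filter at 5 left 7 interferon genes and 16 macrophage genes above, and 1 Hox gene of groups 9 to 13 below, because it removes dim genes. Under the other alternatives the macrophage count was 24 to 27. None of the 17 genes named for their gap changed direction, 8 of 11 higher and 6 of 6 lower ones kept a 2-fold gap under all 3 other scales, and Cfb, Lncpint and Fcgr1 fell just short with quantile normalization, at 0.97, 0.93 and 0.98.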

Other observations

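Probe sets outside the gene comparison also passed 2-fold. Of 1814 that name several genes 18 were higher in triceps and 5 lower. Of 16010 with no gene named here 447 were higher and 284 lower, and most were dim: 63 and 58 of these reached 5. These probe sets are not identified here.

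A few dim genes outside the rule for named genes were picked after their values were seen. Plac8, a cysteine-rich protein of myeloid cells, stood at 4.86 in triceps against 3.26 in rectus femoris and 3.04 in gastrocnemius, with 2.52 to 3.82 in the other 6 arrays. Cd209g, a lectin gene of the family that includes DC-SIGN, stood at 4.89 against 3.74 and 3.81. Trim30a, an interferon-responsive ubiquitin ligase family member, stood at 2.66 against 1.38 and 1.40. All 3 are under 5, where the order of values is uncertain.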
